A study of Mus musculus with 20 samples.

Results

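The genes described here are those counted in tdT- dural CNS-associated macrophages (dCAMs), with the 5 libraries of mice given lipopolysaccharide (LPS) set against the 5 libraries of mice given PBS. A gene was included if it had at least 10 reads in all 5 libraries of at least 1 of these groups, which held for 9815 of the 33243 gene symbols in the count table. Of these, 3883 had at least 10 reads in all 10 libraries, 5888 reached it in the LPS libraries alone and 44 in the PBS libraries alone. The rule used the level of a gene and not its difference between the groups, but a gene that was included through the LPS libraries alone had to be low in some PBS library. The mice carried an inducible Cre in the Ccr2 locus and a tdTomato reporter (Ccr2creERT2/+ R26tdT/tdT). Every mouse of both groups first received the CSF1R inhibitor BLZ945 by gavage at 200 mg/kg for 7 days, which depletes macrophages, so that no group here had undepleted cells. Tamoxifen was given at 2 mg per day on the last gavage day and again 2 and 4 days later. A tdT+ cell therefore came from a cell that expressed Ccr2 in that window, and a tdT- cell was not labelled, either because it came from another source or because recombination failed or came too late. At 8 weeks after the gavage, 1 group received LPS at 2.5 mg/kg (mice 54, 56, 59, 60 and 61) and the other PBS (labelled CTL, mice 174, 175, 177, 178 and 179). The cranial dura mater was harvested 12 hours later, and CD45int CD11b+ CD206int-high tdt- cells were sorted into 1 library per mouse. By the titles, 2 of the 5 LPS mice and 3 of the 5 PBS mice were female, and all were 10 ± 3 weeks old at the first gavage. Values are given as CPM, read counts scaled to the size of the library times edgeR's TMM scaling factor (0.936 to 1.064 in these libraries). Sums of CPM are therefore not exact shares of the reads. They are listed in the order of mice 174, 175, 177, 178 and 179 for PBS and of mice 54, 56, 59, 60 and 61 for LPS, and a fold change is log2 of LPS over PBS.

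The dura mater is the outer sheet of the meninges, and its macrophages lie beside fenestrated vessels and venous sinuses, where they take up and present material from the blood and from the cerebrospinal fluid. LPS, a component of the outer membrane of Gram-negative bacteria, is handed by CD14 to the TLR4-LY96 complex. That receptor signals through MYD88 to NF-kB and through TICAM1 to interferon regulatory factors, and secreted cytokines then act back on the cell through JAK and STAT proteins. Macrophages respond with acute phase proteins, chemokines, nitric oxide and itaconate synthesis, a shift towards glycolysis, and changes in antigen presentation through major histocompatibility complex (MHC) class II, which is under the control of the coactivator CIITA.

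The PBS libraries stood apart from the LPS libraries before any gene was compared. The LPS libraries held 12177799 to 16477892 counted reads and the PBS libraries 6649046 to 9495177. Genes with at least 10 reads numbered 10930 to 11812 per LPS library and 6671 to 9365 per PBS library (difference in means 3629). By an exact two-sided permutation test p was 0.00794, the smallest that 5 against 5 libraries allow. Thinning all libraries to the lowest total left a difference of 3027. Among 7296 genes with a mean level of at least 4 on the log2 CPM scale, 0.247% to 0.932% had 3 reads or fewer in an LPS library, against 6.13% to 22.3% in a PBS library. Over the same genes the log2 levels of LPS libraries correlated with each other at r = 0.889 to 0.944 and those of PBS libraries at r = 0.327 to 0.507, across genes, which are not independent replicates. A well expressed gene could thus be at or near 0 in a single PBS library and well counted in the next. The mouse numbers of the LPS and PBS groups lie in separate ranges, so treatment, library quality and any batch cannot be told apart. Among the genes of the sort gate, Mrc1 (CD206) was detected at 761 to 2401 CPM in PBS and 549 to 712 CPM in LPS libraries, and Itgam (CD11b) at 80.7 to 205 and 794 to 1021 CPM.

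**Figure D1:**
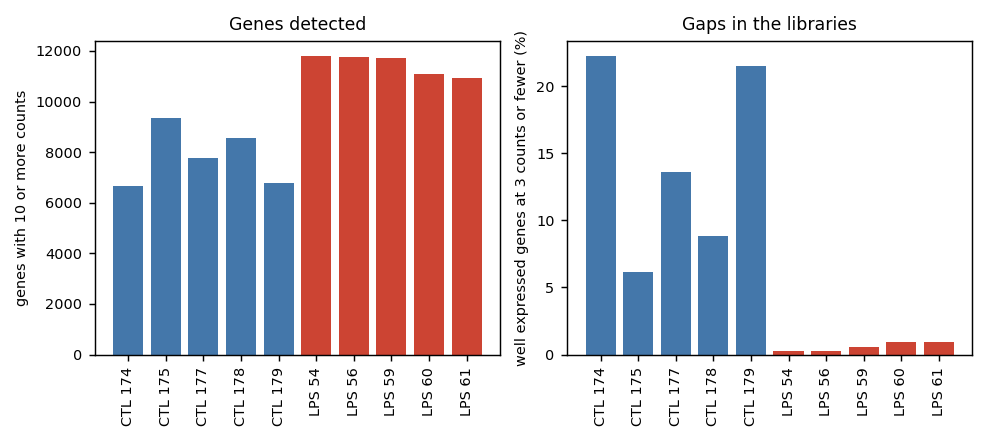
Genes with at least 10 reads (left, count) and the share of 7296 well expressed genes at 3 reads or fewer (right, percent) in each of the 10 tdT- libraries, with PBS (CTL) in blue and LPS in red. All 5 PBS libraries lie below the lowest LPS library on the left and above the highest on the right.

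Of 16391 genes tested, 635 rose (3.87%) and 246 fell (1.5%) after LPS, which together made 5.37% (edgeR quasi-likelihood test, adjusted p under 0.05 and a fold change over 1 on the log2 scale). Counts of called genes in the groups below are to be read beside these shares. A count near them is no result about its group. Among the 9815 genes described, 577 rose and 241 fell. The 3883 genes with at least 10 reads in all 10 libraries gave the firmer base for single fold changes. Of these 134 rose (3.45%) and 233 fell (6.0%), or 9.45% in all, with a median log2 fold change of -0.20 over all 3883. LPS and PBS libraries did not overlap for 132 of those that rose and 215 of those that fell, where 20.5% of all 3883 genes and 13.1% of all genes tested did not overlap. This filter left out 5888 of the genes described for a low PBS library and 44 for a low LPS library. Over the 9815 genes described the median was 0.115. The balance of rises and falls and the median of the 3883 genes therefore depend on the filter. Of the 5888 genes included through the LPS libraries alone, 443 were called higher, and 354 of these had 3 reads or fewer in every PBS library, so their fold changes are descriptions of near absence in PBS libraries. Of the 44 genes included through the PBS libraries alone, 8 were called lower. The called genes carried a large share of the reads. Those that rose took 22.1% ± 2.05 of the counts of LPS libraries against 3.76% ± 0.207 in PBS libraries (SD, n = 5 each), and those that fell took 7.18% ± 0.332 against 27.8% ± 1.74. Of the 9095 genes with a mean under 4 on the log2 CPM scale, 4.56% were called, 408 of them higher and 7 lower. Above that level the share called went from 2.23% of the 4300 genes at 4 to 6 to 47.4% of the 97 genes at 10 and over. Counts of called genes, and single calls, depended on single libraries, and beside each gene below whose call was lost when 1 library was left out stand those libraries. The range of its log2 fold change over the 10 such fits is given too, except for genes that were at or near 0 in every library of 1 group, where a fitted fold change depends on the prior count. Without PBS mouse 175 the genes described that rose numbered 936, and without LPS mouse 54, 56, 59, 60 or 61 they numbered 302, 294, 271, 351 and 308. Those that fell numbered 140, 148 and 159 without LPS mouse 59, 60 or 61. For the genes with 10 reads in all 10 libraries, 83, 81, 78, 88 and 75 rose without each LPS mouse in turn, and 136, 143 and 153 fell without LPS mouse 59, 60 or 61. With the size factors of DESeq2 in place of edgeR's TMM scaling, the median of well expressed genes moved by -0.11 on the log2 scale.

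**Figure D2:**
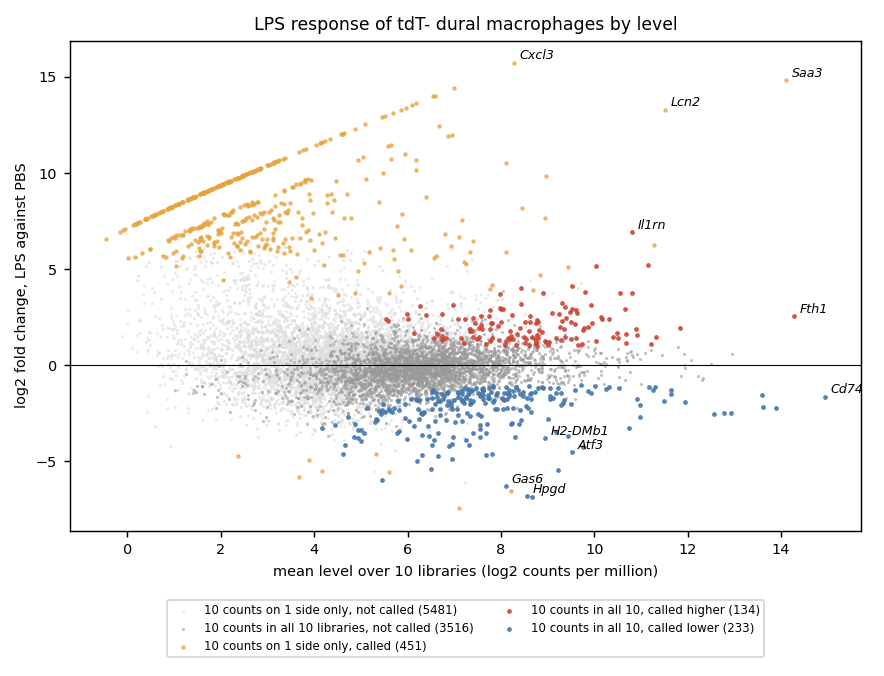
Log2 fold change, LPS against PBS (vertical), against the mean level in log2 CPM (horizontal) for the 9815 genes described in tdT- dCAMs, each point a gene. Red and blue mark the 134 genes that rose and the 233 that fell with 10 reads in all 10 libraries, and orange the 451 called among genes that reached 10 reads on 1 side only; the straight upper rows of orange points are genes with no or few PBS reads, whose height follows their LPS level.

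Acute phase and secreted defence proteins, which bind lipid, iron carriers or haemoglobin or coat microbes, rose in 9 of 17 tested genes, and the other 8 were not called. Of the 9 genes, 8 were at or near 0 in some PBS library, so nearly all of this group rests on genes included through the LPS libraries. Saa3, a serum amyloid A protein made outside the liver, had 1.13, 0.233, 2.38, 0.619 and 1.73 CPM in PBS and 25436, 33817, 39839, 34675 and 43349 CPM in LPS libraries. Every LPS library exceeded every PBS library (log2 fold change 14.82 ± 0.65 SE, adjusted p = 4.97e-07). Lcn2, lipocalin 2, which withholds iron from bacteria by binding their siderophores, had 0.424, 0, 0.238, 1.75 and 0.400 CPM in PBS and 3953, 5473, 6892, 5742 and 7329 CPM in LPS libraries, without overlap (log2 fold change 13.28 ± 0.88 SE, adjusted p = 7.12e-06). Hp, haptoglobin, which captures free haemoglobin, had 0, 4.78, 0.476, 0 and 0.133 CPM in PBS and 1019.8, 790.4, 939, 1121 and 1108 CPM in LPS libraries, and 4 of its PBS libraries lay below 0.5 CPM (log2 fold change 9.82 ± 1.33 SE, adjusted p = 0.00136). Saa1, which is near-identical to Saa2 so that their counts are uncertain, was at 0 in all PBS libraries and at 55.3, 143, 55.6, 85.6 and 114 CPM in LPS libraries, which is at least 246-fold higher when 3 reads per library are taken for 0 (adjusted p = 5.48e-04). Saa2 was at 0 and at a mean of 17.2 CPM (adjusted p = 0.00937). The summed level of 10 markers of neutrophils, which store Lcn2 and Hp, was higher in LPS libraries as well. It was 69.9 to 178 CPM in PBS and 432 to 1087 CPM in LPS libraries. Of these markers 2 were called higher and 8 were not called. The means of S100a9, Ngp, Camp and Ltf were lower after LPS and those of the others higher, with S100a9 at 0 to 2.17 CPM after LPS. The part of neutrophils was not tested. The soluble pattern receptor Ptx3 (log2 fold change 7.86 ± 1.61 SE, adjusted p = 0.0154) was lost without LPS mouse 61 (log2 range 7.20 to 13.32), Wfdc21 (1 read over all PBS libraries and a mean of 5.74 CPM after LPS, adjusted p = 0.0176) without LPS mouse 54 and Orm1 without any 1 of the 5 LPS mice. The only gene of the group called with 10 reads in all 10 libraries was Thbs1 (log2 fold change 3.75 ± 0.92 SE, adjusted p = 0.0342), thrombospondin 1, and it was lost without PBS mice 177, 178 or 179 or any 1 of the 5 LPS mice (log2 range 3.33 to 5.73). Among genes not called, the antiproteases Wfdc17 and Slpi had means of 554 and 3.96 CPM in PBS and 1309 and 199.7 CPM in LPS libraries (adjusted p = 0.0771 and 0.107). In bulk libraries of sorted cells, fewer cells of a type and less RNA per cell cannot be told apart, and this holds for every gene below. The promoter of Saa3, from 250 bases before to 50 after its start, is shown for the motifs it held (chr7:46715627-46715926, minus strand, RefSeq on build GRCm38.p6). Capitals mark the interferon-stimulated response element (GAAA, any 2 bases, GAAA) at position -125 and TTGCNNAA, a C/EBP motif, on the opposite strand at -99, counted from the start and searched on both strands.
Saa3: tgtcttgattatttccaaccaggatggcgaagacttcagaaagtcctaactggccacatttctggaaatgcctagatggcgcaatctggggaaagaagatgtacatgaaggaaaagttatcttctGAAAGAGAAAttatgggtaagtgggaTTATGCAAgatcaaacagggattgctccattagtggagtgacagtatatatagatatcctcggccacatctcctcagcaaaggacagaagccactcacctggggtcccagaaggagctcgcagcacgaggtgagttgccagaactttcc
Of 32851 RefSeq windows of the same kind, 3.44% held the first motif and 10.8% the second.

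Chemokines of the CXC family, which mostly draw neutrophils, rose in 3 of 10 tested genes, and the other 7 were not called. Cxcl3 was at 0 in all PBS libraries and at 486, 523, 605, 293 and 1206 CPM in the LPS libraries, at least 1692-fold higher on the floor of 3 reads (adjusted p = 3.23e-05). Cxcl5 was likewise at 0 in PBS libraries and at 60.8, 55.0, 151, 25.7 and 384 CPM after LPS, at least 368-fold higher (adjusted p = 0.00234), with LPS mouse 61 highest and mouse 60 lowest. Cxcl2, in contrast, had 583, 1293, 2149, 2048 and 734 CPM in PBS and 3725, 3813, 3947, 3166 and 4138 CPM in LPS libraries, so that PBS libraries already held it (log2 fold change 1.47 ± 0.32 SE, adjusted p = 0.0202). Its lowest LPS library lay above its highest PBS library, but the call was lost without LPS mice 54, 56, 59 or 61 (log2 range 1.22 to 1.69). Cxcl1, Cxcl9 and Cxcl10 were not called, with means of 58.5, 16.7 and 50.5 CPM in PBS and 287, 233 and 115 CPM in LPS libraries. The B cell attractant Cxcl13 had 0, 0.233, 0.119, 0 and 416 CPM in PBS and 1668, 1273, 2611, 1042 and 1400.3 CPM in LPS libraries and was not called (adjusted p = 0.232). The promoters of the 2 chemokine genes are given to show the NF-kB motif (GGG, any 2 bases, TT, any base, CC) in capitals, for Cxcl3 (chr5:90785851-90786150, plus strand) at position -73 and for Cxcl2 (chr5:90903649-90903948, plus strand) at -97 and -78.
Cxcl3: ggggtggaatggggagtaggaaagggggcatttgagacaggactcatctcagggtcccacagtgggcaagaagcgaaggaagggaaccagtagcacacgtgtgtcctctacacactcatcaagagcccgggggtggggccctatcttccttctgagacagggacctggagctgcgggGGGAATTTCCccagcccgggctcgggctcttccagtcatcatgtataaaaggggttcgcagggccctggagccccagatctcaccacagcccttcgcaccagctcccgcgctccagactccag
Cxcl2: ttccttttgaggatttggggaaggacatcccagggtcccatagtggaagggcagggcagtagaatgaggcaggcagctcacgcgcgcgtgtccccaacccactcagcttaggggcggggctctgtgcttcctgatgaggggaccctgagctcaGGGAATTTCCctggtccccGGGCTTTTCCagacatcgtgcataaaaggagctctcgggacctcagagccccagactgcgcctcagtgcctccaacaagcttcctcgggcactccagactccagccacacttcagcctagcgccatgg
Among the 8 of 11 CXC genes found in the RefSeq table, 5 held this motif, against 4.79% of the 32851 windows. Cxcl2 and Cxcl3 among them were called, while Cxcl1, Cxcl9 and Cxcl10 were not. Of the 62 genes named in the text and found there, 4 held the motif. So did 2 of 7 MHC class II genes, among them H2-Aa at position -131, which fell after LPS.

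CC chemokines, which mostly draw monocytes and lymphocytes, rose in 3 of 15 tested genes and the other 12 were not called. Ccl7, a ligand of CCR2, had 229, 522, 663, 274 and 437 CPM in PBS and 746, 1089, 1107, 1307 and 1419.9 CPM in LPS libraries, and each LPS library exceeded each PBS library (log2 fold change 1.42 ± 0.30 SE, adjusted p = 0.0171). Ccl5, which draws T cells, had 36.3, 176, 0.238, 112 and 0 CPM in PBS and 3506, 4239.7, 5329, 4666 and 6737 CPM in LPS libraries, with 2 PBS libraries at or near 0 and 2 above 100 CPM (log2 fold change 6.24 ± 1.51 SE, adjusted p = 0.0310). Its call was lost without PBS mice 174 or 178 or any 1 of the 5 LPS mice (log2 range 5.86 to 7.04). Ccl11 rose from 0 to a mean of only 5.81 CPM and was lost without any 1 of the 5 LPS mice. Ccl2, Ccl3 and Ccl4 were not called, with log2 fold changes of 0.18 ± 0.40, 1.59 ± 0.51 and 0.81 ± 0.48 (SE) and overlapping libraries. The median over the 9 CC genes with 10 reads in all 10 libraries was 0.18, against -0.20 over all such genes. Cytokines and their antagonists split, with 4 of 18 higher, 2 lower and 12 not called. Il1a, interleukin 1 alpha, was at 0 in 4 PBS libraries and at 0.266 CPM in the other, against 186, 164, 453, 97.3 and 338 CPM after LPS (adjusted p = 5.85e-05). Il1rn, the secreted antagonist of the same receptor, had 117, 6.53, 5.00, 14.9 and 5.06 CPM in PBS and 2579, 3953, 3798, 2406 and 5166 CPM in LPS libraries, with PBS mouse 174 well above the other 4 (log2 fold change 6.91 ± 1.03 SE, adjusted p = 0.00257). Il1b, in contrast, had 1394, 959, 1124, 2160.1 and 1694 CPM in PBS and 2485, 1808, 2411, 1736 and 2111 CPM in LPS libraries, with overlapping groups, and was not called (log2 fold change 0.53 ± 0.21 SE, adjusted p = 0.178). Tnf had 113, 317, 156, 292 and 604 CPM in PBS and 86.5, 110.0, 118, 71.5 and 99.5 CPM in LPS libraries, and its mean was lower after LPS without a call (log2 fold change -1.61 ± 0.43 SE, adjusted p = 0.050). Tnfsf9, the ligand of the T cell costimulator CD137, fell (log2 fold change -2.33 ± 0.44 SE, adjusted p = 0.0102), from 247, 337, 736, 307 and 1209 CPM to 109, 97.2, 124, 90.9 and 143 CPM without overlap. Osm, oncostatin M, rose (log2 fold change 2.03 ± 0.49 SE, adjusted p = 0.0303) but was lost without PBS mouse 174 or any 1 of the 5 LPS mice (log2 range 1.66 to 2.21). Il16 fell (log2 fold change -1.86 ± 0.47 SE, adjusted p = 0.0396) and was lost without PBS mouse 175 or any 1 of the 5 LPS mice (log2 range -2.02 to -1.71). Lif, at a mean of 2.39 CPM in LPS and 0 in PBS libraries, was lost without any 1 of the 5 LPS mice. Il6 was not called, at 0 to 86.2 CPM in PBS and 108 to 336 CPM in LPS libraries (adjusted p = 0.277). Csf3, which drives neutrophil production, had 2 reads in PBS mouse 177 and 0 in the other 4, against 164, 236, 327, 121 and 314 CPM after LPS (adjusted p = 3.23e-05).

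Of the LPS receptor complex, the Toll-like receptors and their adaptors, 2 of 22 genes rose and the other 20 were not called. Of all genes tested, 3.87% rose. Cd14, the coreceptor that loads LPS onto TLR4, had 1124, 2129, 1186, 1784 and 1403 CPM in PBS and 5063, 6722, 6489, 4438 and 6149.5 CPM in LPS libraries. The lowest LPS library lay far above the highest PBS library (log2 fold change 1.92 ± 0.19 SE, adjusted p = 1.16e-04). Tlr2, a receptor for bacterial lipoproteins, rose from 336 ± 104 to 688 ± 148 CPM (SD, n = 5 each, log2 fold change 1.04 ± 0.25 SE, adjusted p = 0.0321), but fell under the fold threshold or lost its call without PBS mice 174, 175 or 179 or any 1 of the 5 LPS mice (log2 range 0.81 to 1.11). Tlr4 had a log2 fold change of 1.57 ± 0.71 (SE, adjusted p = 0.209) and Myd88 of 0.28 ± 0.43 (adjusted p = 0.757), neither called. Aoah, an enzyme that removes acyl chains from LPS and so inactivates it, rose (log2 fold change 2.27 ± 0.21 SE, adjusted p = 6.81e-05), with 127, 181, 162, 136 and 156 CPM in PBS and 538, 742, 862, 728 and 808 CPM in LPS libraries. NF-kB subunits and feedback inhibitors had 2 of 16 genes higher, 2 lower and 12 not called, and none of the 4 calls held in every leave-one-out fit. Tnfaip3, the ubiquitin-editing inhibitor A20, rose (log2 fold change 1.26 ± 0.31 SE, adjusted p = 0.0355) with overlapping libraries and was lost without PBS mice 174, 177 or 179 or LPS mice 54, 56, 59 or 61 (log2 range 1.07 to 1.57). Ikbke rose (log2 fold change 6.49 ± 1.67 SE, adjusted p = 0.0426) and was lost without PBS mice 177, 178 or 179 or any 1 of the 5 LPS mice (log2 range 6.01 to 12.20). The nuclear inhibitors Nfkbid and Nfkbiz fell by 2.29 and 1.30 on the log2 scale. Nfkbid was lost without LPS mice 56, 59, 60 or 61 (log2 range -2.66 to -2.04) and Nfkbiz without PBS mouse 178 or any 1 of the 5 LPS mice (log2 range -1.51 to -0.95). Nfkbia, the main cytoplasmic inhibitor, was at a mean of 1970 CPM in PBS and 1536 CPM in LPS libraries and was not called (adjusted p = 0.286). The median of the 13 NF-kB genes with 10 reads in all 10 libraries was -0.36. Among JAK, STAT and SOCS genes, 2 of 15 rose and the other 13 were not called. Socs3, an inhibitor of cytokine receptors that signal through gp130, had 428, 267, 259.9, 287 and 614 CPM in PBS and 1209, 1388, 1564, 1178 and 1651 CPM in LPS libraries, without overlap (log2 fold change 1.91 ± 0.26 SE, adjusted p = 0.00134). Jak3 rose (log2 fold change 5.30 ± 1.33 SE, adjusted p = 0.0376) and was lost without PBS mice 175 or 178 or any 1 of the 5 LPS mice (log2 range 4.98 to 6.07). Stat3 was not called (log2 fold change 1.51 ± 0.44 SE, adjusted p = 0.0702), although its libraries did not overlap.

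Type I interferon stimulated genes rose in 5 of 32 tested genes and 27 were not called. The number that rose ranged from 2 to 21 over all alternatives, so a gene not called here is not shown to be unchanged. The median over the 19 of them with 10 reads in all 10 libraries was 0.93, against -0.20 over all such genes, and 4 of these 19 were called. Irf7, the transcription factor that amplifies interferon production, had 431, 174, 166, 163 and 65.3 CPM in PBS and 1548, 1439.5, 1668, 2054 and 2023 CPM in LPS libraries. All LPS libraries lay above all PBS libraries (log2 fold change 3.13 ± 0.41 SE, adjusted p = 0.00109). Slfn4 was at 0 in every PBS library and at 73.8, 76.7, 191, 158 and 224 CPM after LPS, at least 393-fold higher (adjusted p = 2.41e-04). Slfn1 also rose (log2 fold change 2.94 ± 0.54 SE, adjusted p = 0.00924). Isg15, a ubiquitin-like modifier, rose (log2 fold change 2.43 ± 0.48 SE, adjusted p = 0.0129) and was lost without LPS mouse 61 (log2 range 2.11 to 2.88), and Slfn5 was lost without PBS mice 174, 175, 177 or 179 or any 1 of the 5 LPS mice (log2 range 1.46 to 1.92). Rsad2, Zbp1 and Oasl2 were not called (adjusted p = 0.0918, 0.0546 and 0.520), at means of 42.0, 94.0 and 314 CPM in PBS and 439, 475 and 503 CPM in LPS libraries. Of the guanylate binding proteins and immunity GTPases, which attack intracellular microbes, 1 of 16 rose and the other 15 were not called. This lies near the 3.87% of all genes tested that rose. The called gene was Gbp2 (log2 fold change 2.99 ± 0.70 SE, adjusted p = 0.0262), and it was lost without LPS mice 59, 60 or 61 (log2 range 2.63 to 3.18).

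The enzymes of itaconate, arginine and superoxide metabolism rose in 6 of 14 tested genes, the other 8 were not called, and all 6 calls held in each of the 10 fits that left out a library. Of the 6, 5 were included through the LPS libraries alone. Acod1, which makes itaconate, was at 0 in all PBS libraries and at 166, 177, 337, 192 and 401 CPM after LPS (at least 692-fold, adjusted p = 5.85e-05). Nos2, the inducible nitric oxide synthase, was at 0 and at 77.1, 52.6, 76.1, 129 and 241 CPM (at least 313-fold, adjusted p = 5.55e-04). Arg1, arginase 1, which consumes the same substrate, was at 0 and at 267, 159, 151, 225 and 161 CPM (at least 523-fold, adjusted p = 5.75e-05). All 5 LPS libraries thus held reads of Nos2 and of Arg1 together, and no PBS library held either. Slc7a2, an arginine transporter, had 0, 0, 0, 0 and 0.400 CPM in PBS and 81.3, 118, 272, 56.9 and 196 CPM in LPS libraries (adjusted p = 4.59e-04), and Arg2 rose as well (adjusted p = 0.00257). Sod2, the mitochondrial superoxide dismutase, had at least 10 reads in all libraries, with 21.3, 39.4, 35.9, 79.0 and 108 CPM in PBS and 1537, 1737, 2623, 1454 and 2914 CPM in LPS libraries (log2 fold change 5.18 ± 0.47 SE, adjusted p = 6.00e-05). The phagocyte oxidase subunits Cybb and Cyba were not called, with log2 fold changes of 0.64 ± 0.28 and 0.14 ± 0.17 (SE). Tarm1, an activating receptor of myeloid cells, was also at 0 in all PBS libraries and at 140.1, 143, 191, 159 and 300.0 CPM after LPS (at least 507-fold, adjusted p = 6.85e-05). Cd38, an NAD-consuming ectoenzyme, had 85.9, 81.6, 410.0, 11.2 and 7.99 CPM in PBS and 3795, 4488, 5043, 4091 and 4806 CPM in LPS libraries, with PBS mouse 177 highest among the controls and still below every LPS library (log2 fold change 5.22 ± 0.95 SE, adjusted p = 0.00915).

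**Figure D3:**
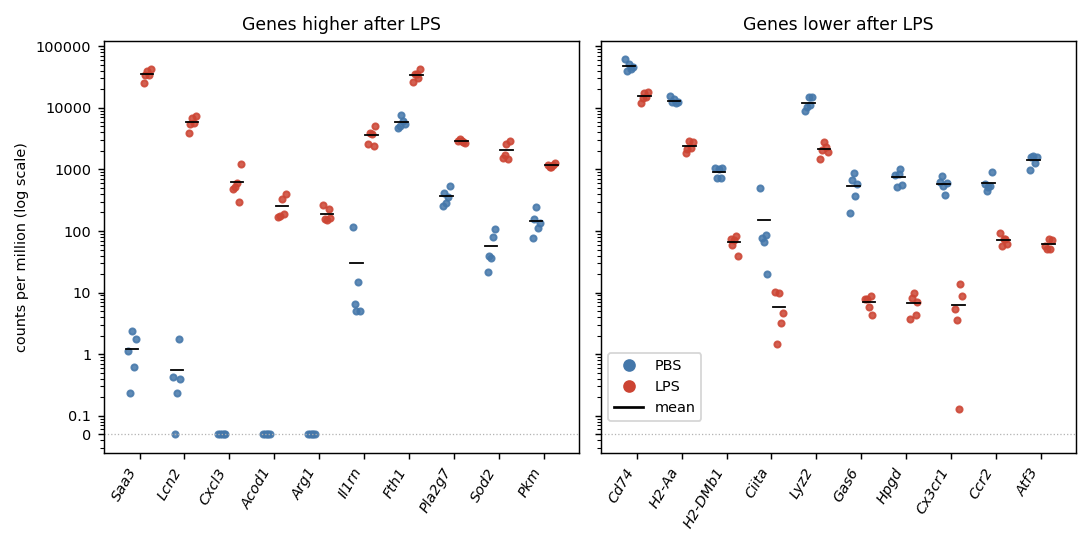
Level in CPM (log scale, 0 drawn on the dotted line) of 10 genes that rose (left) and 10 that fell (right) after LPS in tdT- dCAMs, each point a library, PBS in blue and LPS in red, with the mean as a bar. The PBS and LPS points of each gene do not overlap, and Cxcl3, Acod1 and Arg1 have all 5 PBS libraries at 0.

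Lipid mediator enzymes and receptors changed in both directions, with 3 of 19 genes higher, 3 lower and 13 not called. Pla2g7, which hydrolyses platelet-activating factor, rose (log2 fold change 2.94 ± 0.20 SE, adjusted p = 8.59e-06). Ptges, the inducible prostaglandin E synthase, had 1 read in PBS mouse 177, 0 in the other 4 PBS libraries and 142, 84.7, 364, 87.8 and 335 CPM after LPS (adjusted p = 3.23e-05). The prostaglandin E receptor gene Ptger2 had 1 read in PBS mouse 175, 0 in the other 4 and 22.1, 20.5, 26.6, 24.7 and 34.5 CPM after LPS (adjusted p = 0.00257). Hpgd, which inactivates prostaglandins, fell to 3.78, 8.26, 9.86, 4.32 and 7.13 CPM from 817, 521, 829, 1020.1 and 563 CPM (log2 fold change -6.81 ± 0.40 SE, adjusted p = 3.36e-06). Ptgs1, the constitutive cyclooxygenase, had 72.1, 129.5, 254, 107 and 100.4 CPM in PBS and 21.5, 21.7, 26.2, 18.7 and 8.84 CPM in LPS libraries (log2 fold change -2.77 ± 0.51 SE, adjusted p = 0.00966). Ltc4s, the leukotriene C4 synthase, fell (log2 fold change -4.92 ± 0.98 SE, adjusted p = 0.0130) and was lost without LPS mouse 59 (log2 range -5.37 to -4.74). Ptgs2, the inducible cyclooxygenase, had 586, 50, 178, 54.5 and 26.1 CPM in PBS and 669, 638, 897, 466 and 1016 CPM in LPS libraries and was not called (adjusted p = 0.144), with overlapping groups. Ptges, Ptger2 and Hpgd kept their calls in all 10 leave-one-out fits. Ptger4, another prostaglandin E receptor, had 127, 89.0, 68.0, 72.1 and 105 CPM in PBS and 70.6, 37.8, 47.3, 49.4 and 36.6 CPM in LPS libraries, with overlapping groups, and was not called (log2 fold change -0.93 ± 0.42 SE, adjusted p = 0.207). Ptges3, a further prostaglandin E synthase, was not called either (log2 fold change 0.09 ± 0.44 SE, adjusted p = 0.933). Plin2, the coat protein of lipid droplets, rose (log2 fold change 2.51 ± 0.20 SE, adjusted p = 2.00e-05), with 359, 266, 426, 407 and 226 CPM in PBS and 1833, 1735, 1992, 1879 and 2147 CPM in LPS libraries.

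Glycolysis and glucose uptake genes rose in 7 of 19 tested genes and the other 12 were not called. All 7 had at least 10 reads in all 10 libraries, where they made 7 of 12 genes of the group against 3.45% of all such genes, with a group median of 1.33. Pkm, pyruvate kinase, had 75.7, 154, 247, 112 and 137 CPM in PBS and 1203, 1113, 1091, 1196 and 1259.8 CPM in LPS libraries, and the lowest LPS library lay far above the highest PBS library (log2 fold change 3.02 ± 0.29 SE, adjusted p = 8.83e-05). Pfkl, the liver-type phosphofructokinase, had 84.9, 46.8, 40.3, 23 and 67.4 CPM in PBS and 277, 224, 368, 263 and 304 CPM in LPS libraries (log2 fold change 2.45 ± 0.38 SE, adjusted p = 0.00334). Pfkfb3, whose product activates phosphofructokinase, rose by 3.76 ± 0.80 on the log2 scale (adjusted p = 0.0177). Gapdh and Ldha, often taken as stable genes, rose by 1.35 ± 0.24 and 1.23 ± 0.18 on the log2 scale, without overlap. Ldha had 361, 266, 332, 261 and 267 CPM in PBS and 806, 611, 656, 747 and 673 CPM in LPS libraries. Tpi1 and Eno1 rose by 1.30 and 1.08 on the log2 scale. Tpi1 was lost without LPS mice 54, 59 or 61 (log2 range 1.16 to 1.35) and Eno1 without PBS mice 178 or 179 or any 1 of the 5 LPS mice (log2 range 0.90 to 1.28). Gapdh has many processed copies in the genome, and how the counting treated reads shared with them is not known. Hif1a, the transcription factor of many of these genes, had 1.41, 139, 164, 165 and 0.266 CPM in PBS and 1489, 1513, 1448, 1336 and 1821 CPM in LPS libraries and was not called (adjusted p = 0.0782), although the groups did not overlap. Nuclear-encoded subunits of the respiratory chain, in comparison, had 1 of 94 genes higher, 1 lower and 92 not called, and their median was -0.26 over the 79 with 10 reads in all 10 libraries. Of all genes tested, 3.87% rose and 1.5% fell. Atp5if1, the inhibitor of ATP synthase, fell (log2 fold change -2.13 ± 0.34 SE, adjusted p = 0.00371), and Cox7a1, at a mean of 1.06 CPM after LPS and 0 in PBS libraries, was lost without PBS mice 174, 177, 178 or 179 or any 1 of the 5 LPS mice.

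Iron and heme handling had 2 of 17 genes higher, 3 lower and 12 not called, and all 5 calls held in every leave-one-out fit. Fth1, the heavy subunit of ferritin that oxidises iron, rose (log2 fold change 2.55 ± 0.15 SE, adjusted p = 4.15e-06). Ftl1, the light subunit, had 1388, 1991, 2686, 2042 and 2161 CPM in PBS and 869, 941, 984, 826 and 843 CPM in LPS libraries. Ftl1 fell (log2 fold change -1.20 ± 0.16 SE, adjusted p = 0.00143). The groups of Ftl1 did not overlap, and the 2 subunits of 1 protein shell moved in opposite directions. Both genes have many near-identical copies, so their counts are uncertain. Slc11a1, which pumps iron out of the phagosome, had 203, 388, 146, 273 and 239 CPM in PBS and 1212, 1331, 1239.7, 1266 and 908 CPM in LPS libraries, with LPS mouse 61 lowest of its group (log2 fold change 2.25 ± 0.26 SE, adjusted p = 3.54e-04). Trf, transferrin, had 3349, 3779, 4011, 2920.2 and 2137 CPM in PBS and 731, 981, 809, 767 and 644 CPM in LPS libraries. Trf fell without overlap (log2 fold change -2.04 ± 0.18 SE, adjusted p = 5.75e-05). Blvrb, a biliverdin reductase, fell by 2.27 ± 0.45 on the log2 scale (adjusted p = 0.0130). Hmox1, heme oxygenase 1, was at a mean of 365 CPM in PBS and 367 CPM in LPS libraries and was not called. Metallothioneins, zinc transporters and NRF2 targets rose in 5 of 14 genes, with the other 9 not called. Mt2, a metallothionein, had 20.5, 27.6, 31.2, 64.6 and 36.5 CPM in PBS and 403, 546, 436, 401 and 559.6 CPM in LPS libraries, without overlap (log2 fold change 3.70 ± 0.35 SE, adjusted p = 8.83e-05). Mt1 rose by 1.68 and was lost without LPS mouse 61 (log2 range 1.42 to 1.89), and Mt3 was lost without any 1 of the 5 LPS mice. The zinc importer Slc39a14 (log2 fold change 6.85 ± 1.46 SE, adjusted p = 0.0179) was lost without LPS mice 59 or 61 (log2 range 6.42 to 9.81), and Txn1, thioredoxin (log2 fold change 1.04 ± 0.25 SE, adjusted p = 0.0311), without PBS mice 175, 178 or 179 or any 1 of the 5 LPS mice (log2 range 0.87 to 1.12). Prdx1 and Gsr, both targets of NRF2, were not called (adjusted p = 0.104 and 0.380).

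MHC class II genes fell in 8 of 10 tested genes, and the other 2, H2-Oa and H2-Ob, were not called (adjusted p = 0.171 and 0.358). The 8 were all the genes of the group with at least 10 reads in all 10 libraries, where 6.0% of genes fell, and their median was -2.75 against -0.20. Together the 10 genes took 78889 to 120043 CPM of a PBS library and 19430.3 to 28507 CPM of an LPS library. Cd74, the invariant chain that guides class II molecules, had 61098, 39423, 50942, 43073 and 46174 CPM in PBS and 12048, 14649, 17230.2, 14844 and 17820 CPM in LPS libraries and fell by 1.65 ± 0.13 on the log2 scale (adjusted p = 1.77e-05). H2-Aa, the alpha chain of the I-A molecule, had 15375, 12229.9, 13762, 12223 and 12251 CPM in PBS and 1862, 2128, 2917, 2220 and 2829 CPM in LPS libraries (log2 fold change -2.46 ± 0.13 SE, adjusted p = 1.59e-06). H2-Ab1, its beta chain, had 26446, 16377, 20627, 19011 and 20518 CPM in PBS and 3855, 4271, 5269, 4158 and 5548 CPM in LPS libraries (log2 fold change -2.16 ± 0.14 SE, adjusted p = 4.68e-06). In each of these 3 genes the highest LPS library stayed below the lowest PBS library. H2-Eb1, the beta chain of the I-E molecule, had 13889, 9111, 10336, 9592 and 8418 CPM in PBS and 1470.2, 1637, 2023, 1545 and 2189 CPM in LPS libraries (log2 fold change -2.53 ± 0.16 SE, adjusted p = 4.68e-06). The peptide exchange factor genes H2-DMa and H2-DMb1 fell by 3.46 ± 0.28 and 3.81 ± 0.26 (SE, log2 scale, adjusted p = 3.20e-05 and 9.06e-06). For H2-DMb1 the libraries were at 1067, 734, 1019, 722 and 1049 CPM in PBS and 74.9, 59.8, 72.1, 81.5 and 39.7 CPM after LPS, and neither gene overlapped between the groups. Ciita, the coactivator that switches the class II genes on, had 506, 77.5, 66.3, 87.0 and 20.1 CPM in PBS and 10.1, 1.45, 9.99, 3.18 and 4.62 CPM in LPS libraries. Ciita fell without overlap (log2 fold change -4.69 ± 0.96 SE, adjusted p = 0.0152), with PBS mouse 174 far above the other 4. H2-DMb2 fell (log2 fold change -2.96 ± 0.72 SE, adjusted p = 0.0322) and was lost without PBS mouse 178 or any 1 of the 5 LPS mice (log2 range -3.30 to -2.73). The summed level of dendritic cell markers, cells rich in class II, also differed between the groups (810 to 3115 CPM in PBS and 292 to 640 CPM in LPS libraries over 6 genes), and its part was not tested. The 2 promoters below are shown for the Y box, CTGATTGG, part of the conserved class II promoter, in capitals at position -51 of H2-Aa (chr17:34287774-34288073, minus strand) and at -62 of H2-Eb1 (chr17:34305617-34305916, plus strand).
H2-Aa: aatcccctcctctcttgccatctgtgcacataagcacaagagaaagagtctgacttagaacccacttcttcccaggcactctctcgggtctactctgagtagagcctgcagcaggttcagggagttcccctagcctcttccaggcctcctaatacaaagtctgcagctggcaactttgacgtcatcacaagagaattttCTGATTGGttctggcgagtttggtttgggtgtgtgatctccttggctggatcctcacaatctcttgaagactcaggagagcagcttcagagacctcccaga
H2-Eb1: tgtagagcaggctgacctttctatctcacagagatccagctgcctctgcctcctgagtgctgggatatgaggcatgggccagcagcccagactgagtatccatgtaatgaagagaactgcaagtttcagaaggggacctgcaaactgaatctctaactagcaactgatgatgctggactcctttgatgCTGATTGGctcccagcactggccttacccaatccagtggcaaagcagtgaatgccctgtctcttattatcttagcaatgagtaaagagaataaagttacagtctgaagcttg
Of the 7 class II genes found in the RefSeq table, 3 held these letters on either strand (H2-Aa, H2-Eb1 and H2-Oa), against 4.1% of all windows. MHC class I and peptide loading genes, in comparison, had 1 of 17 higher and 16 not called, with a median of 0.62 over 14 genes. The count lies near the 3.87% of all genes tested that rose. The called gene was Tapbp, the tapasin that bridges class I to the peptide transporter (log2 fold change 1.39 ± 0.21 SE, adjusted p = 0.00322). B2m, H2-K1 and H2-D1 were 0.56 ± 0.11, 0.66 ± 0.13 and 0.59 ± 0.13 on the log2 scale, with adjusted p = 0.0107, 0.0130 and 0.0222 but under the fold threshold, and reads of the near-identical class I genes may be split between them.

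Genes that mark resident border macrophages fell in 8 of 18 tested genes and the other 10 were not called. The 8 were among the 15 with 10 reads in all 10 libraries, whose median was -1.27. Gas6, the bridge between apoptotic cells and the receptors AXL and MERTK, had 195, 679.9, 883, 367 and 590.3 CPM in PBS and 7.84, 7.96, 5.77, 8.73 and 4.30 CPM in LPS libraries. Its highest LPS library lay far below its lowest PBS library (log2 fold change -6.29 ± 0.48 SE, adjusted p = 1.77e-05). Clec10a, a galactose-type lectin, had 280.4, 431, 446, 541 and 194 CPM in PBS and 42.3, 28.7, 27.0, 38.1 and 31.3 CPM in LPS libraries (log2 fold change -3.50 ± 0.35 SE, adjusted p = 1.34e-04). Maf, a transcription factor of tissue macrophages, had 497, 385, 318, 569 and 283 CPM in PBS and 77.8, 106, 144, 144 and 129 CPM in LPS libraries (log2 fold change -1.77 ± 0.29 SE, adjusted p = 0.00483). Igf1, insulin-like growth factor 1, had 97.6, 255, 288, 229 and 55.1 CPM in PBS and 7.28, 10.2, 42.1, 4.00 and 15.4 CPM in LPS libraries (log2 fold change -3.55 ± 0.73 SE, adjusted p = 0.0158), and Igfbp4 fell by 2.24 ± 0.30 on the log2 scale (adjusted p = 0.00121). These 5 genes did not overlap between the groups and held their calls in all 10 leave-one-out fits. Mrc1, the mannose receptor used in the sort, fell by 1.10 ± 0.28 (adjusted p = 0.0413) and was lost without PBS mice 175 or 177 or any 1 of the 5 LPS mice (log2 range -1.30 to -0.82). Ms4a7 and Stab1 fell by 1.16 and 1.27 on the log2 scale, but Ms4a7 was lost without LPS mouse 59 (log2 range -1.34 to -1.05) and Stab1 without PBS mouse 177 or LPS mice 56, 59, 60 or 61 (log2 range -1.45 to -1.03). Pf4, Cd163 and F13a1 were not called, with log2 fold changes of 0.17 ± 0.27, 0.58 ± 0.44 and 0.74 ± 0.23 (SE). Lyve1 was at 32.8 to 458 CPM in PBS and 0.405 to 26.9 CPM in LPS libraries and was not called (adjusted p = 0.0776).

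Efferocytosis and scavenger receptor genes had 1 of 14 higher, 3 lower and 10 not called. Msr1, the class A scavenger receptor, had 40.0, 229, 322, 98.5 and 244 CPM in PBS and 994, 1121, 1805, 1402 and 1525 CPM in LPS libraries. Msr1 rose (log2 fold change 2.87 ± 0.47 SE, adjusted p = 0.00469). Cd36, a class B scavenger receptor that takes up oxidised lipoprotein, had 162, 311, 417, 381 and 590.0 CPM in PBS and 56.6, 19.9, 50.1, 30.1 and 69.6 CPM in LPS libraries. Cd36 fell (log2 fold change -3.04 ± 0.45 SE, adjusted p = 0.00235). Clec7a, dectin 1, the receptor of fungal glucans, had 529, 211, 358, 229 and 224 CPM in PBS and 31.5, 15.7, 35.7, 32.7 and 20.6 CPM in LPS libraries. Clec7a fell (log2 fold change -3.51 ± 0.41 SE, adjusted p = 3.98e-04). The libraries of all 3 genes were separated by treatment, in opposite directions for Msr1 and Cd36. Mfge8 fell (log2 fold change -2.79 ± 0.57 SE, adjusted p = 0.0154) and was lost without LPS mice 54, 59 or 60 (log2 range -3.00 to -2.64), and Axl and Mertk were not called (adjusted p = 0.138 and 0.146). Complement genes had 1 of 16 higher, 2 lower and 13 not called, where 3.87% of all genes tested rose and 1.5% fell. C1qa and C1qc, chains of the first component, fell by 1.27 ± 0.22 and 1.5 ± 0.19 on the log2 scale (adjusted p = 0.00621 and 8.95e-04). C1qc had 3192, 5465, 5785, 4551 and 4839 CPM in PBS and 1587, 1509, 1822, 2297 and 1188 CPM in LPS libraries. C1qb, the chain that assembles with them, was at 5692 CPM in PBS and 3867 CPM in LPS libraries and was not called (adjusted p = 0.122). Cfb, of the alternative pathway, rose from 0.253 ± 0.447 to 54.6 ± 11.2 CPM (SD, n = 5 each, adjusted p = 0.0107), and C3 was not called (adjusted p = 0.135).

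**Figure D4:**
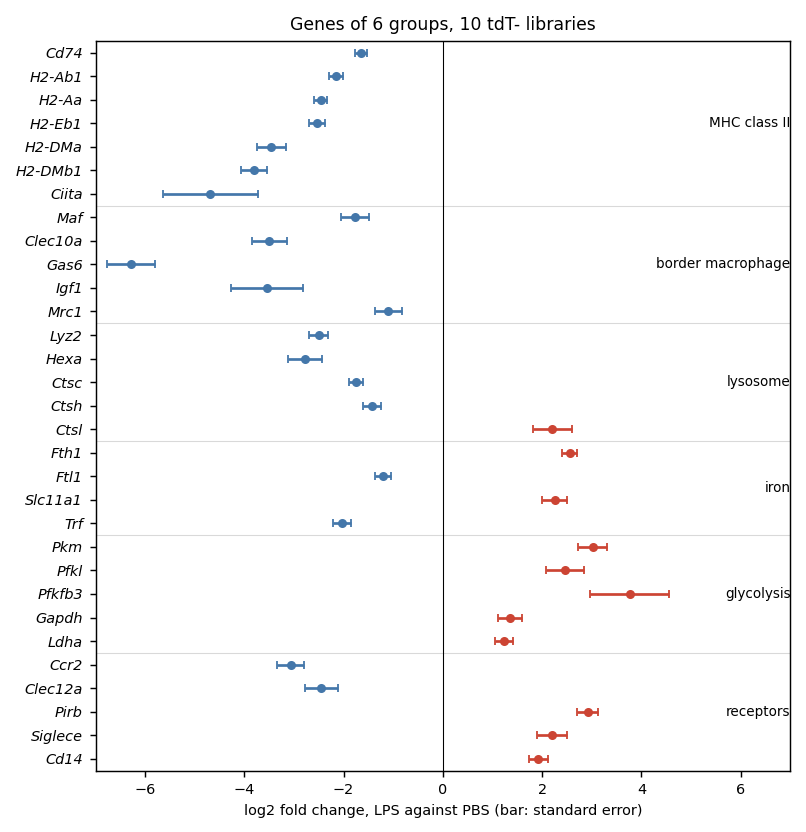
Log2 fold change, LPS against PBS, with its standard error (horizontal bar) for genes of 6 groups in the 10 tdT- libraries (5 per group), blue below and red above 0. The 7 MHC class II genes and the 5 border macrophage genes lie left of 0, the 5 glycolysis genes lie right of it, and lysosome, iron and receptor genes lie on both sides.

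Lysosomal enzymes and membrane proteins had 3 of 23 genes higher, 5 lower and 15 not called, and the median of the 22 with 10 reads in all 10 libraries was 0.06. Ctsl, cathepsin L, had 78.6, 444, 467, 426 and 350.2 CPM in PBS and 1172, 2101, 1798, 1447 and 1606 CPM in LPS libraries. Ctsl rose (log2 fold change 2.20 ± 0.39 SE, adjusted p = 0.00770). Ctsz, cathepsin Z, rose by 1.15 and was lost without LPS mice 56, 59 or 61 (log2 range 1.0 to 1.30). Hexa, a subunit of hexosaminidase, had 420.4, 1083, 1375, 628 and 1011 CPM in PBS and 167, 120.1, 131, 158 and 80.3 CPM in LPS libraries. Hexa fell (log2 fold change -2.78 ± 0.34 SE, adjusted p = 6.11e-04). Ctsc and Ctsh, aminopeptidase cathepsins, fell by 1.75 ± 0.13 and 1.43 ± 0.17, and Lyz2, lysozyme, by 2.51 ± 0.19 on the log2 scale. Ctsb and Ctss, cathepsins of the same family, were not called and had log2 fold changes of 0.08 ± 0.16 and 0.03 ± 0.12. Cst3, the secreted cathepsin inhibitor cystatin C, had 4601, 3932, 5626, 4704 and 3786 CPM in PBS and 1065, 1258, 1454, 1076 and 1302 CPM in LPS libraries. Cst3 fell (log2 fold change -1.88 ± 0.14 SE, adjusted p = 1.34e-05). Cholesterol synthesis, uptake and efflux had 2 of 19 genes higher, 1 lower and 16 not called. Apoe, the lipoprotein of cholesterol efflux, had 10928, 17994, 26603, 21423 and 15387 CPM in PBS and 4354, 7986, 8635, 5584 and 4962 CPM in LPS libraries. Apoe fell without overlap (log2 fold change -1.55 ± 0.24 SE, adjusted p = 0.00355). Nr1h3, the liver X receptor alpha, was at 0 in all PBS libraries and at 100, 22.8, 45.2, 50.2 and 19.8 CPM after LPS (at least 129-fold, adjusted p = 0.00328), and Lss, of the synthesis pathway, was at 0 and at a mean of 12.4 CPM (adjusted p = 0.0107). Abca1, the efflux pump, was not called (log2 fold change 1.30 ± 0.50 SE, adjusted p = 0.168).

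Immediate early genes had 1 of 19 higher, 6 lower and 12 not called at 12 hours, and the median over the 16 with 10 reads in all 10 libraries was -0.80. Atf3, a stress-induced repressor, had 984, 1581, 1641, 1255 and 1603 CPM in PBS and 57.6, 50.8, 73.3, 51.3 and 71.1 CPM in LPS libraries, and its highest LPS library lay far under its lowest PBS library (log2 fold change -4.54 ± 0.23 SE, adjusted p = 1.10e-06). Egr1 had 3932, 5861, 4138, 4122 and 4611 CPM in PBS and 1491, 2411, 2162, 1315 and 1847 CPM in LPS libraries. Egr1 fell (log2 fold change -1.30 ± 0.18 SE, adjusted p = 0.00136). Jun and Junb, subunits of AP-1, fell by 1.22 ± 0.19 and 1.13 ± 0.14 on the log2 scale (adjusted p = 0.00373 and 5.55e-04). Fos, Zfp36 and Ier2 were -0.65 ± 0.15, -0.77 ± 0.15 and -0.97 ± 0.20, with adjusted p = 0.0300, 0.0118 and 0.0177 but under the fold threshold. Nr4a1 fell by 1.14 and Klf2 by 1.11 on the log2 scale. Nr4a1 was lost without LPS mice 59 or 60 (log2 range -1.34 to -1.01) and Klf2 without PBS mouse 177 or LPS mice 54, 59, 60 or 61 (log2 range -1.34 to -1.05). Fosl1, at a mean of 1.14 CPM after LPS and 0 in PBS libraries, was lost without PBS mice 174, 177, 178 or 179 or any 1 of the 5 LPS mice. Immediate early genes also respond to tissue dissociation, and the part of handling in their difference was not tested. Macrophage transcription factors had 2 of 18 higher, 1 lower and 15 not called. Mef2c fell by 3.33 ± 0.32 on the log2 scale (adjusted p = 8.88e-05). Id2 rose by 1.02 and was lost without PBS mice 174, 175 or 177 or any 1 of the 5 LPS mice (log2 range 0.86 to 1.11). Spi1 (PU.1) was at 0.77 ± 0.20 with adjusted p = 0.0452, under the fold threshold, and Irf8 was not called (adjusted p = 0.873).

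Receptors of chemoattractants and colony stimulating factors had 2 of 16 genes higher, 3 lower and 11 not called. Ccr2, the receptor that brings monocytes to tissue, had 582, 445, 513, 543 and 922 CPM in PBS and 92.0, 56.6, 73.4, 74.6 and 61.9 CPM in LPS libraries. Ccr2 fell (log2 fold change -3.07 ± 0.28 SE, adjusted p = 5.85e-05). Cx3cr1, the fractalkine receptor, had 614, 789.6, 535, 391 and 592 CPM in PBS and 5.32, 3.60, 0.130, 13.8 and 8.84 CPM in LPS libraries (log2 fold change -6.53 ± 0.89 SE, adjusted p = 0.00138). Fpr1, the receptor of formylated bacterial peptides, had 0.283, 17.1, 0, 6.81 and 0 CPM in PBS and 612, 1036, 1467, 630.0 and 1182 CPM in LPS libraries. Fpr1 rose (log2 fold change 7.66 ± 1.49 SE, adjusted p = 0.0122). In none of these 3 genes did the groups overlap. Csf1r, the target of the depleting drug, had 1917, 4037, 3089, 1641 and 2752 CPM in PBS and 1477, 1282, 1813, 1291 and 1059.8 CPM in LPS libraries, and its adjusted p was 0.0339 at a log2 fold change of -0.96 ± 0.23, just under the fold threshold, with overlapping groups. Csf2rb rose by 2.08 and P2ry6 fell by 1.14 on the log2 scale. Csf2rb was lost without PBS mouse 178 or any 1 of the 5 LPS mice (log2 range 1.77 to 2.38) and P2ry6 without LPS mice 56 or 59 (log2 range -1.26 to -1.08). Inhibitory myeloid receptors had 4 of 14 genes higher, 1 lower and 9 not called. Pirb, which binds MHC class I, had 212, 131, 161, 212 and 149 CPM in PBS and 1125, 1098, 1565, 1309 and 1417 CPM in LPS libraries. Pirb rose (log2 fold change 2.91 ± 0.20 SE, adjusted p = 1.02e-05). Siglece, a sialic acid receptor, had 75.0, 161, 143, 130.3 and 261 CPM in PBS and 609, 704, 798, 666 and 769.7 CPM in LPS libraries. Siglece rose (log2 fold change 2.20 ± 0.30 SE, adjusted p = 0.00143). Fcgr2b, the inhibitory Fc receptor, rose by 1.45 ± 0.22 (adjusted p = 0.00315), and Gpr84 by 3.07 but was lost without LPS mouse 59 (log2 range 2.75 to 3.31). Clec12a, a uric acid crystal receptor, had 755, 361, 765, 926 and 599.5 CPM in PBS and 107, 64.4, 162, 163 and 127 CPM in LPS libraries. Clec12a fell (log2 fold change -2.45 ± 0.33 SE, adjusted p = 0.00128). Sirpa and Cd274 were not called (adjusted p = 0.0765 and 0.160). Among genes of no list with the smallest p, Ms4a6d had 258, 322, 336, 253 and 86.6 CPM in PBS and 2919.8, 3688, 3282, 3400.2 and 3434 CPM in LPS libraries (log2 fold change 3.73 ± 0.31 SE, adjusted p = 3.23e-05). Sdc4, a heparan sulfate proteoglycan, rose by 2.41 ± 0.23 (adjusted p = 7.16e-05), and Itgam, the CD11b of the sort gate, by 2.72 ± 0.26 (adjusted p = 7.88e-05). Tmsb4x, which binds monomeric actin, had 22878, 21603, 31578, 29089.5 and 19507 CPM in PBS and 7223, 4790.4, 4432, 5786 and 4565 CPM in LPS libraries. Tmsb4x fell (log2 fold change -2.22 ± 0.17 SE, adjusted p = 1.68e-05).

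Cytosolic ribosomal protein genes fell in 17 of 81 tested genes and 64 were not called, with a median of -1.12 over the 74 with 10 reads in all 10 libraries against -0.20 over all such genes. Only 6 of the 17 calls held in every leave-one-out fit, and the number that fell ranged from 6 to 49 over all alternatives. Rpl13 had 382, 176, 337, 449 and 295 CPM in PBS and 105, 105, 91.6, 104 and 90.4 CPM in LPS libraries (log2 fold change -1.73 ± 0.29 SE, adjusted p = 0.00556), and Rps12 had 198, 59.0, 81.4, 187 and 148 CPM in PBS and 22.7, 17.8, 23.7, 25.4 and 24.8 CPM in LPS libraries (log2 fold change -2.56 ± 0.47 SE, adjusted p = 0.00915). The LPS libraries of both genes lay within a narrow band below all PBS libraries. The 81 genes together took 6929 to 14345 CPM of a PBS library and 5043 to 5409 CPM of an LPS library. Ribosomal protein genes have many processed copies, so their counts are uncertain. Proteasome subunits rose in 4 of 35 genes and 31 were not called, with a median of 0.69 over 31 genes. Psma6 rose (log2 fold change 1.65 ± 0.28 SE, adjusted p = 0.00595), while of the other 3 Psmc4 was lost without PBS mice 175, 177, 178 or 179 or any 1 of the 5 LPS mice (log2 range 0.92 to 1.31), Psmd2 without any 1 of the 5 LPS mice (log2 range 1.11 to 1.45) and Psmd3 without any 1 of the 5 LPS mice (log2 range 1.32 to 1.72). Genes of endoplasmic reticulum stress and chaperones had 1 of 17 higher, 1 lower and 15 not called, where 3.87% of all genes tested rose and 1.5% fell. Xbp1, a transcription factor of the unfolded protein response, rose (log2 fold change 1.39 ± 0.31 SE, adjusted p = 0.0228) and was lost without any 1 of the 5 LPS mice (log2 range 1.20 to 1.51). Herpud1, of the degradation pathway, fell (log2 fold change -1.42 ± 0.23 SE, adjusted p = 0.00368), and Hspa5, the main chaperone, was not called (log2 fold change 0.61 ± 0.17 SE, adjusted p = 0.0673). Cell cycle genes had 1 of 18 lower and 17 not called, where 1.5% of all genes tested fell. The called gene was Stmn1, stathmin (log2 fold change -2.69 ± 0.68 SE, adjusted p = 0.0390), which was lost without PBS mouse 178 or any 1 of the 5 LPS mice (log2 range -2.94 to -2.59). The 18 genes took 416 to 1286 CPM of a PBS library and 225 to 351 CPM of an LPS library, without overlap, and Pcna was not called (adjusted p = 0.476).

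**Figure D5:**
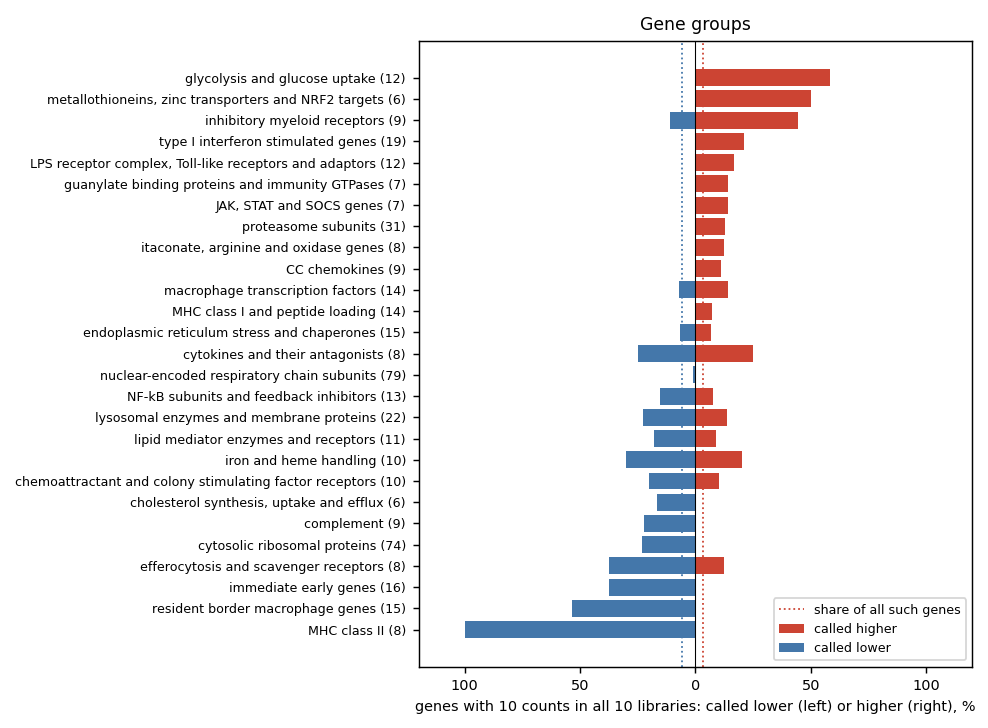
Share in percent of genes with at least 10 reads in all 10 libraries that fell (blue, left of 0) or rose (red, right of 0) after LPS in 27 gene groups, with the number of such genes in brackets and dotted lines at the shares over all 3883 such genes, 6.0% lower and 3.45% higher. MHC class II (8 of 8 genes) and resident border macrophage genes (8 of 15) lie farthest left and glycolysis (7 of 12) farthest right.

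Markers of cell types other than macrophages were read in the same libraries, and their part in the results was not tested. Of 9 macrophage markers, 2 rose (among them Fcgr1), 2 fell (Mrc1 and C1qa) and 5 were not called, and their sum was 9445 to 20033 CPM in PBS and 9191 to 12562 CPM in LPS libraries. Cd68 was at 353 to 1179.9 CPM in PBS and 613 to 946 CPM in LPS libraries, and Adgre1 (F4/80) at 718 to 2389 and 805 to 1158 CPM. Neutrophil markers rose in 2 of 10 genes with 8 not called, and their sum was 69.9 to 178 CPM in PBS and 432 to 1087 CPM in LPS libraries. S100a8 had 1.70, 0.700, 6.30, 26.6 and 2.26 CPM in PBS and 99.8, 279, 320.3, 154 and 624 CPM in LPS libraries (log2 fold change 5.29 ± 1.02 SE, adjusted p = 0.0117), but S100a9, which encodes its partner in the calprotectin dimer, had 0.141, 0.817, 0.952, 13.8 and 1.07 CPM in PBS and 2.17, 1.15, 0.324, 0.979 and 0 CPM in LPS libraries. Mmp8 had 0, 0, 0.238, 0 and 0 CPM in PBS and 69.0, 141, 124, 82.3 and 82.7 CPM in LPS libraries (adjusted p = 2.59e-04), while Ly6g was at 0 in 4 PBS and 4 LPS libraries and Cxcr2 in 4 PBS and 3 LPS libraries. Of 8 monocyte markers, 1 rose, 2 fell and 5 were not called, with sums of 624 to 1091 CPM in PBS and 342 to 849 CPM in LPS libraries. Ly6c2 was not called (adjusted p = 0.894), S100a4 fell (log2 fold change -3.71 ± 0.85 SE, adjusted p = 0.0246) but was lost without LPS mice 56, 59, 60 or 61 (log2 range -4.34 to -3.48), and Vcan rose (log2 fold change 6.95 ± 1.45 SE, adjusted p = 0.0166) but was lost without LPS mice 54 or 59 (log2 range 6.61 to 9.02). Dendritic cell markers fell in 1 of 6 genes and 5 were not called, with sums of 810 to 3115 CPM in PBS and 292 to 640 CPM in LPS libraries. The called gene was Cd209a, a lectin of dendritic cells, with 2583, 334, 1162, 979.5 and 794 CPM in PBS and 3.43, 27.0, 33.3, 11.3 and 61.3 CPM in LPS libraries (log2 fold change -5.42 ± 0.79 SE, adjusted p = 0.00235). Flt3 had 324, 46.4, 29.7, 0.929 and 10.8 CPM in PBS and 20.7, 6.35, 4.67, 6.69 and 4.05 CPM in LPS libraries, and Zbtb46 had 183, 49.0, 0, 40.2 and 2.26 CPM in PBS and 14.1, 9.56, 3.63, 5.06 and 7.95 CPM in LPS libraries, with PBS mouse 174 highest in both and in Ciita and H2-DMa.

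Of the 3 microglia markers 1 rose and 2 were not called, with sums of 72.9 to 293 CPM in PBS and 616 to 794 CPM in LPS libraries. The gene was Tmem119, with 1.41, 76.2, 23.4, 32.2 and 70.6 CPM in PBS and 617, 737, 561, 675 and 677 CPM in LPS libraries (log2 fold change 4.00 ± 0.74 SE, adjusted p = 0.00985), while Sall1 was at 0 in 4 PBS and 2 LPS libraries and P2ry12 was not called (adjusted p = 0.425). The 6 fibroblast, 6 endothelial, 5 mast cell, 4 B cell, 7 T and NK cell and 4 erythroid markers tested were not called by edgeR, with 8 of these 32 at an unadjusted p under 0.05, and DESeq2 called 4 of them. Fibroblast markers summed to 10.2 to 4751 CPM in PBS and 73.2 to 425 CPM in LPS libraries, with Dcn at 0.141, 174, 37.0, 1.45 and 1809 CPM in PBS libraries, where mouse 179 was highest. Erythroid markers summed to 3.38 to 699 CPM in PBS and 0 to 33.8 CPM in LPS libraries, with PBS mouse 178 highest for Hba-a1 (315 CPM). Endothelial markers summed to 0.848 to 41.8 CPM in PBS and 0.0811 to 6.16 CPM in LPS libraries, and mast cell markers to 0 to 26.0 and 0 to 125 CPM, with Cpa3 at 75.2 CPM in LPS mouse 60. B cell markers summed to 0.848 to 111 CPM in PBS and 14.7 to 32.8 CPM in LPS libraries, with Cd79a at 0 in 4 libraries of each group. T and NK cell markers summed to 0 to 0.476 CPM in PBS and 0.0649 to 20.3 CPM in LPS libraries, with Cd3e at 0 in 4 PBS and 2 LPS libraries.

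Whether the response of tdT- dCAMs differed from that of the tdT+ dCAMs of the same mice was tested in all 20 libraries. A positive difference means a larger log2 fold change in tdT+ cells. Of 16632 genes, 209 differed (1.26%), 15 with a more positive and 194 with a more negative change in tdT+ cells. Among 3798 genes with at least 10 reads in all 20 libraries 12 differed (0.316%), 9 in the positive and 3 in the negative direction. The balance of directions was thus not the same in the well counted genes. With the mouse as a replicate block, 241 (limma-trend) and 619 (limma-voom) differed, while without 1 LPS mouse 62 to 76 did, and without PBS mouse 175, 178 or 179 there were 622, 343 and 335. When only the genes with 10 reads in all 20 libraries were fitted, Tnfsf9 alone was called by edgeR and 25 genes by limma-voom with the block. Of the 367 called genes of tdT- cells with 10 reads in all 10 libraries, 5 had a called difference, and 364 changed in the same direction in tdT+ cells. The clearest was Tnfsf9, with a difference of 3.09 ± 0.52 (SE, adjusted p = 0.00341). On CPM scaled over all 20 libraries, it fell in tdT- cells from 265, 317, 759.6, 336 and 1187 CPM to 109.7, 94.8, 117, 91.3 and 143 CPM, while tdT+ cells held 33.8, 49.8, 62.6, 94.6 and 49.8 CPM in PBS and 115, 96.2, 119.6, 65.0 and 85.7 CPM in LPS libraries. In PBS libraries the tdT- value exceeded the tdT+ value in all 5 mice, and the LPS values of both populations overlapped. It was called in all leave-one-out fits of the 20 libraries (2.59 to 3.48), but not in the limma-voom fit of all genes with the block (adjusted p = 0.0688). Srgn, serglycin, the core protein of secretory granules, differed by 1.39 ± 0.29 (SE, adjusted p = 0.0164), with a mean of 1001 CPM in tdT- and 339 CPM in tdT+ PBS libraries and of 2859 and 2539 CPM after LPS. Samsn1 differed by 3.23 ± 0.66 (SE, adjusted p = 0.0144), Ran by 1.38 ± 0.30 (SE, adjusted p = 0.0225) and Cdkn1a by 1.37 ± 0.32 (SE, adjusted p = 0.0344). In the negative direction, Csf1r differed by -1.09 ± 0.24 (SE, adjusted p = 0.0234), Tgoln1 by -1.49 ± 0.37 (SE, adjusted p = 0.0493) and Adgre4 by -4.14 ± 1.03 (SE, adjusted p = 0.0493). Csf1r was at 2058, 3799, 3187, 1796 and 2704 CPM in tdT- and 6175, 6283, 5656, 5657 and 6189 CPM in tdT+ PBS libraries, and at 1481, 1250.4, 1717, 1298 and 1063 CPM and 1624, 1399.5, 1479, 1521 and 1056 CPM after LPS. The 2 populations thus lay apart in PBS mice and overlapped after LPS for this gene too. Srgn, Samsn1, Ran, Cdkn1a, Csf1r, Tgoln1 and Adgre4 each lost the call when any 1 of the 5 LPS mice was left out, and Csf1r also without PBS mouse 174 or 178, Cdkn1a without PBS mouse 179, and Tgoln1 and Adgre4 without PBS mouse 177 or 179. With the mouse as a replicate block in the limma-voom fit of all genes, Srgn, Samsn1 and Csf1r were not called (adjusted p = 0.706, 0.0847 and 0.337), while Ran, Cdkn1a, Tgoln1 and Adgre4 were. All 7 were called by limma-trend with the block. Leave-one-out differences were 1.16 to 1.48 for Srgn, 2.95 to 3.37 for Samsn1, 1.30 to 1.45 for Ran, 1.28 to 1.46 for Cdkn1a, -1.24 to -0.99 for Csf1r, -1.78 to -1.27 for Tgoln1 and -4.75 to -3.66 for Adgre4. Pla2g7 had a difference of -0.86 ± 0.22 (SE, adjusted p = 0.0526) and was not called.

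Of the genes named in the sections before this comparison, 6 others had a called difference, 3 in each direction. In the negative direction, Lss was at 0 in all tdT- PBS libraries and at 10.4, 3.29, 8.42, 3.67 and 29.7 CPM in tdT+ PBS libraries, against means of 12.3 and 13.2 CPM after LPS (adjusted p = 0.00138). It was called in all leave-one-out fits and in both fits of all genes with the mouse as a replicate block. Nr1h3 was likewise at 0 in all tdT- PBS libraries, and at 12.5, 15.9, 5.54, 0.105 and 0 CPM in tdT+ PBS libraries, against means of 47.1 and 27.0 CPM after LPS (adjusted p = 0.0205). Its call was lost without any 1 of the 5 LPS mice and in the limma-trend fit with the block (adjusted p = 0.180). Jak3 differed by -4.78 ± 1.14 (SE, adjusted p = 0.0379), with 0, 1.98, 0, 1.69 and 4.45 CPM in tdT- and 69.8, 61.8, 31.0, 35.1 and 12.0 CPM in tdT+ PBS libraries and means of 64.0 and 59.4 CPM after LPS, and was lost without any 1 of the 5 LPS mice (-5.81 to -4.21). For these 3 genes the tdT- and tdT+ libraries overlapped after LPS. In the positive direction, Cd209a differed by 4.17 ± 1.02 (SE, adjusted p = 0.0463), with means of 1228 CPM in tdT- and 44.2 CPM in tdT+ PBS libraries, against 26.8 and 17.4 CPM after LPS. Its call was lost without PBS mice 174, 177 or 178 or any 1 of the 5 LPS mice (3.69 to 4.48), and with the block (adjusted p = 0.0910 by limma-trend and 0.564 by limma-voom). Saa3 differed by 2.69 ± 0.62 (SE, adjusted p = 0.0322), at 1.21, 0.220, 2.46, 0.677 and 1.70 CPM in tdT- and 0.162, 0.212, 0.115, 0.314 and 0 CPM in tdT+ PBS libraries, a difference that lies in PBS levels near 0. It was lost without PBS mice 174, 177 or 179 or any 1 of the 5 LPS mice (2.14 to 3.28), and with the block (adjusted p = 0.150 and 0.724). Ier2 differed by 1.08 ± 0.27 (SE, adjusted p = 0.0463), with means of 1620 CPM in tdT- and 881 CPM in tdT+ PBS libraries and of 791 and 910 CPM after LPS, and was lost without PBS mice 174, 178 or 179 or any 1 of the 5 LPS mice (0.91 to 1.26) and in the limma-voom fit with the block, where the difference was 0.98.

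At the other end, 4 called genes had 3 reads or fewer in every LPS library, namely Negr1, Chp2, Asgr2 and Ighj1, and none of them reached 10 reads in all PBS libraries. Negr1 had 30, 0, 857, 33 and 2 reads and Chp2 0, 493, 194, 3 and 176 reads in the PBS libraries. Asgr2 had 23, 178, 4, 86 and 39 reads and Ighj1 0, 47, 35, 50 and 64 reads. Their PBS libraries were themselves spread from near 0 to large counts. Negr1 was lost without PBS mouse 177 or any 1 of the 5 LPS mice, Chp2 without any 1 of the 5 LPS mice, Asgr2 without any 1 of the 5 LPS mice and Ighj1 without PBS mice 175, 177, 178 or 179 or any 1 of the 5 LPS mice.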

How the data were processed

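RNA was measured in tdT- and tdT+ dural macrophages sorted from the same mice (SMART-Seq mRNA LP low-input kit with PCR, no molecular identifiers named). The deposited values were raw counts per gene symbol; per the labels, the authors used bcl2fastq 2.20, STAR 2.7.11a, featureCounts 2.0.6 and DESeq2 1.46.0, and whether coordinates were on mm10 or GRCm39 was not settled, so no coordinate of the files was used. Of 33243 symbols, 13058 had no read in the 10 tdT- libraries, and no symbol had the prefix of mitochondrially encoded genes.

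Counts were tested as deposited with edgeR 4.0.16 (R 4.3.3; quasi-likelihood F test, TMM scaling, group means, a total of at least 5 reads over the 10 libraries, common biological coefficient of variation 1.373). A gene was called at a Benjamini-Hochberg adjusted p under 0.05 over all genes tested and a log2 fold change over 1 in size, and the standard error was the log2 fold change divided by the square root of F. Depth and detected genes were compared by an exact permutation test over all splits into 5 and 5 libraries. The difference from tdT+ cells was an interaction term over 20 libraries with a total of at least 10 reads. The libraries were mice labelled as separate samples, and chi-square values of read counts between them gave no sign of duplicates. A floor of 3 reads per library stood for 0, and floors cover counting error only, since PCR copies were not removed by molecular identifiers. Scripts were tested on simulated data. Promoters came from RefSeq on GRCm38.p6, where 62 of 83 genes looked up were found.

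Genes were named by rule: for each direction the 10 with the smallest p among called genes with 10 reads in all 10 libraries and no overlap, the 8 highest among called genes at the floor throughout a group, the 5 largest gains and losses of mean CPM, the called members of 30 gene lists and 11 marker lists with the smallest p and their uncalled members of highest level, and for the difference the 5 with the smallest p per direction. Further uncalled members, and Cd209a, Saa3, Cxcl13, Slpi, Lyve1, Il6 and Hif1a, were named after their values were seen. The genes and lists were chosen with earlier results of these data known. Same-numbered tdT+ and tdT- libraries came from 1 mouse, and their deviations from the group means correlated at r = -0.00460 to 0.0461 in PBS and 0.228 to 0.449 in LPS mice. Alternatives covered the libraries fitted, the mouse as a replicate block (limma 3.58.1), DESeq2 1.42.0, scaling, filters, thinning, thresholds, sex by title and leaving out each mouse. Figures were drawn with matplotlib 3.10.9 (Python 3.11.15).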

Additional observations from a re-analysis of the deposited data

Results flagged for a closer look

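Among 158 groups of 5 libraries for the genes looked at, 13 held a library far from the other 4, 12 at the high end and 1 at the low end. The cut-off flags about 1 in 20 groups only for independent, normally distributed values. The groups shared libraries and CPM were not transformed, so the 13 cannot be set against that rate. The gap to the nearest library, as a share of the range of the group, was 0.758 for Lcn2 in PBS mouse 178, 0.901 for Hp in PBS mouse 175, 0.912 for Il1rn, 0.862 for Ciita and 0.751 for H2-DMa in PBS mouse 174, 0.806 for Cd38 in PBS mouse 177 and 0.713 for Ccr2 in PBS mouse 179. It was 1.0 for Ptges and Csf3 in PBS mouse 177, Il1a and Slc7a2 in PBS mouse 179 and Ptger2 in PBS mouse 175, each of which rests on 1 to 3 reads against 0 in the other 4 libraries. For Slc11a1 it was 0.719 in LPS mouse 61, the low end of its group.

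Listed here are 10 of the genes that responded differently to LPS in tdT+ cells by the interaction test (log2, tdT+ minus tdT-). The genes Lss, Nr1h3, Jak3 and Ier2, given above, also had a called difference. The difference was 2.69 for Saa3, 3.09 for Tnfsf9, 4.17 for Cd209a, 3.23 for Samsn1, 1.39 for Srgn, 1.38 for Ran and 1.37 for Cdkn1a. It was -1.09 for Csf1r, -1.49 for Tgoln1 and -4.14 for Adgre4. Mean PBS levels of Saa3, Tnfsf9, Cd209a, Samsn1, Srgn, Ran and Cdkn1a were higher in tdT- than in tdT+ cells. Those of Csf1r, Tgoln1 and Adgre4 were lower. For Samsn1 the tdT- and tdT+ means were 136 and 14.1 CPM in PBS and 450 and 441 CPM in LPS libraries. For Cdkn1a they were 479 and 187 CPM in PBS and 584 and 589 CPM in LPS libraries. Adgre4 also lay apart after LPS, at 51.7 and 12.5 CPM.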

How the results depend on the processing

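Of the genes described, 577 rose, and this count was 919 in a joint fit of 20 libraries, 904 by DESeq2, 1499 by limma-voom with quality weights and 897 without PBS mice 174 and 179 together. With the mouse as a replicate block it was 3250 (limma-voom) and 2621 (limma-trend), and leaving out 1 library gave 271 to 936. The 241 that fell became 579, 627 and 433 in the joint fit, by DESeq2 and without both PBS mice, 515 and 528 with the block, and 140 to 317 without 1 library. For genes with 10 reads in all 10 libraries, the 134 that rose became 232 in the joint fit, 434 and 402 with the block, 214 without both PBS mice and 75 to 159 without 1 library. The 233 that fell became 529 in the joint fit, 561 by DESeq2, 480 and 492 with the block, 354 without both PBS mice and 136 to 289 without 1 library. The 209 genes whose LPS effect differed between tdT+ and tdT- cells became 619 (limma-voom) and 241 (limma-trend) with the block, 25 with limma-voom and block and 1 by edgeR on genes with 10 reads in all 20 libraries, and 62 to 622 without 1 mouse. The limma-trend fits, the fit without both PBS mice and the limma-voom fit of well counted genes were chosen after seeing the data. The weights of limma-voom spanned 0.202 to 2.13e+12 over 20 libraries, so its counts are given with that limit. Counts within gene groups moved as well. Over the alternative fits, 1 to 10 genes of the LPS receptor group and 1 to 8 JAK, STAT and SOCS genes rose. For glycolysis genes the range was 5 to 13 and for proteasome subunits 1 to 14. MHC class II genes that fell numbered 6 to 9. A gene that was not called is thus not shown to be unchanged. The causes of these changes were not tested. Of 870 values of 38 genes named by rule under the alternatives, 808 kept their direction and call, 62 kept the direction but lost the call, and none reversed. Of those 62, 24 came from limma-voom fits, and the other 38 were all of Ccl5, Negr1, Chp2, Asgr2 and Ighj1. The sparse PBS libraries limit genes of low level most. The share of PBS values at 3 reads or fewer was 21.8% for genes at 4 to 6 on the log2 CPM scale. It was 4.60% at 6 to 8 and 1.44% at 10 and over. Genes of high level with some PBS libraries at or near 0, such as Ccl5, are limited as well.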
